A study of Mus musculus with 17 samples.

Results

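The subunits of the glutamate and GABA receptors were followed through RNA-seq of newborn osteocalcin-deficient mice. They were taken as the protein-coding genes whose symbol begins with *Gria*, *Grid*, *Grik* or *Grin* and a number, or is *Grm*, *Gabr* or *Gabbr* with the letters and numbers of a subunit. This rule found 48 of the 55359 genes counted. One of them, *Grid2ip*, matches by its letters but encodes a scaffold protein and no subunit, so 47 subunits are described. Of these, 26 belong to glutamate receptors (4 AMPA, 5 kainate, 7 NMDA, 2 delta and 8 metabotropic) and 21 to GABA receptors (19 GABA-A and 2 GABA-B).

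All mice were male pups of the 129/SvEv background at postnatal day 1 and carried the Ocn_GK allele or its WT counterpart. Osteocalcin (Ocn) is a hormone made by osteoblasts. The 9 forebrain libraries were 3 WT, 3 *Ocn*+/- and 3 *Ocn*-/-, and the 8 testis libraries were 2 WT, 3 *Ocn*+/- and 3 *Ocn*-/-. WT pups had WT mothers, whereas all *Ocn*+/- and *Ocn*-/- pups had *Ocn*-/- mothers, so in any comparison with WT the genotypes of pup and mother, and the litter, cannot be told apart. No source used here says that the pups of a group came from separate litters, so the p-values measure the spread between these samples.

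Glutamate is the main excitatory and GABA the main inhibitory transmitter of the mature brain. AMPA, kainate and NMDA receptors are ion channels built from 4 subunits each, GABA-A receptors are chloride channels built from 5 (most often alpha, beta and gamma subunits), and metabotropic glutamate (mGlu) and GABA-B receptors act through G proteins. Subunit choice sets how a receptor works: the AMPA subunit GluA2, encoded by *Gria2*, keeps calcium out of the channel, and the NMDA subunit encoded by *Grin2b* gives way to that of *Grin2a* while the forebrain matures after birth. Around birth many neurons still hold much chloride, which the importer encoded by *Slc12a2* brings in and the exporter encoded by *Slc12a5* later removes.

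Depth ran from 7302401 to 8289015 counts in testes and from 6518151 to 14621584 in forebrain. The forebrain library WT 3 was the shallowest and stood apart. The median correlation of its log2 levels with the other forebrains was 0.976, against 0.985 to 0.989 for the others. Chi-square per degree of freedom between the counts of 2 replicates was 90.8 and 69.9 for WT 3 with WT 1 and WT 2. It was 3.57 between WT 1 and WT 2 and at most 9.32 within the mutant genotypes of forebrain. The calls of the named subunits and of the gene lists in forebrain were therefore also computed without WT 3. The legend of the study's forebrain heatmap gives 2 WT samples, while 3 are used here. Levels and shares below include WT 3. The labels call the brain tissue hippocampus and the study calls it forebrain including hippocampus. Markers of striatum (174 to 295 CPM summed over 7 genes) and olfactory bulb (30.6 to 127 CPM over 5 genes) were present along with those of hippocampus (209 to 372 CPM over 4 genes), while 8 genes of mid- and hindbrain summed to at most 0.576 CPM. The osteocalcin gene *Bglap* had 0 to 5 counts per forebrain and 0 to 2 per testis and *Bglap2* had 0 counts throughout, which allows up to 3, so neither could check the genotypes.

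In the newborn forebrain the GABA-B subunit *Gabbr1* had the highest level of all subunits, and the AMPA subunit *Gria1* and the mGlu receptor *Grm5* were among the next. Levels of different genes are compared here as TPM, the counts divided by the length of the gene's merged exons and scaled to a common sum, with mean and SD over all 9 forebrains. *Gabbr1*, the subunit of the GABA-B receptor that binds GABA, had 242 ± 24.3 TPM (SD, n = 9). *Gria1*, which encodes GluA1, had 136 ± 19.1 TPM and *Grm5*, a group I mGlu receptor, had 109.5 ± 14.7 TPM, and their means ± SD overlapped, while those of *Gabbr1* and *Gria1* did not.

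The next subunits lay close together. *Gabbr2*, the subunit of the GABA-B receptor that couples to G proteins, had 94.8 ± 14.1 TPM. Between 80.8 and 72.5 TPM followed the kainate subunits *Grik3* and *Grik5*, the GABA-A subunits *Gabra5* and *Gabra2*, and *Grin2b*. Neighbours in this order did not differ beyond their spread, and the order also depends on the length used: with the longest coding transcript in place of the merged exons, *Gria2* moved from rank 13 (60.5 ± 12.3 TPM) to rank 5 and *Grik3* from rank 6 to rank 13, whereas *Gabbr1* kept rank 1. The lowest subunits that could be tested were *Gabrq* (2.75 TPM), *Gabre* (0.919 TPM) and *Grin2c* (0.832 TPM).

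Of the 47 subunits 40 passed, and 7 did not pass, the filter on low counts in forebrain. *Gabra6*, a cerebellar granule cell subunit, had at most 3 counts in a forebrain, *Gabrp* at most 2, and *Grm6*, the receptor of retinal bipolar cells, at most 1. The rho subunits *Gabrr1*, *Gabrr2* and *Gabrr3* had at most 14, 4 and 2 counts and *Grin3b* at most 8. For these the depth does not show a difference.

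**Figure D1:**
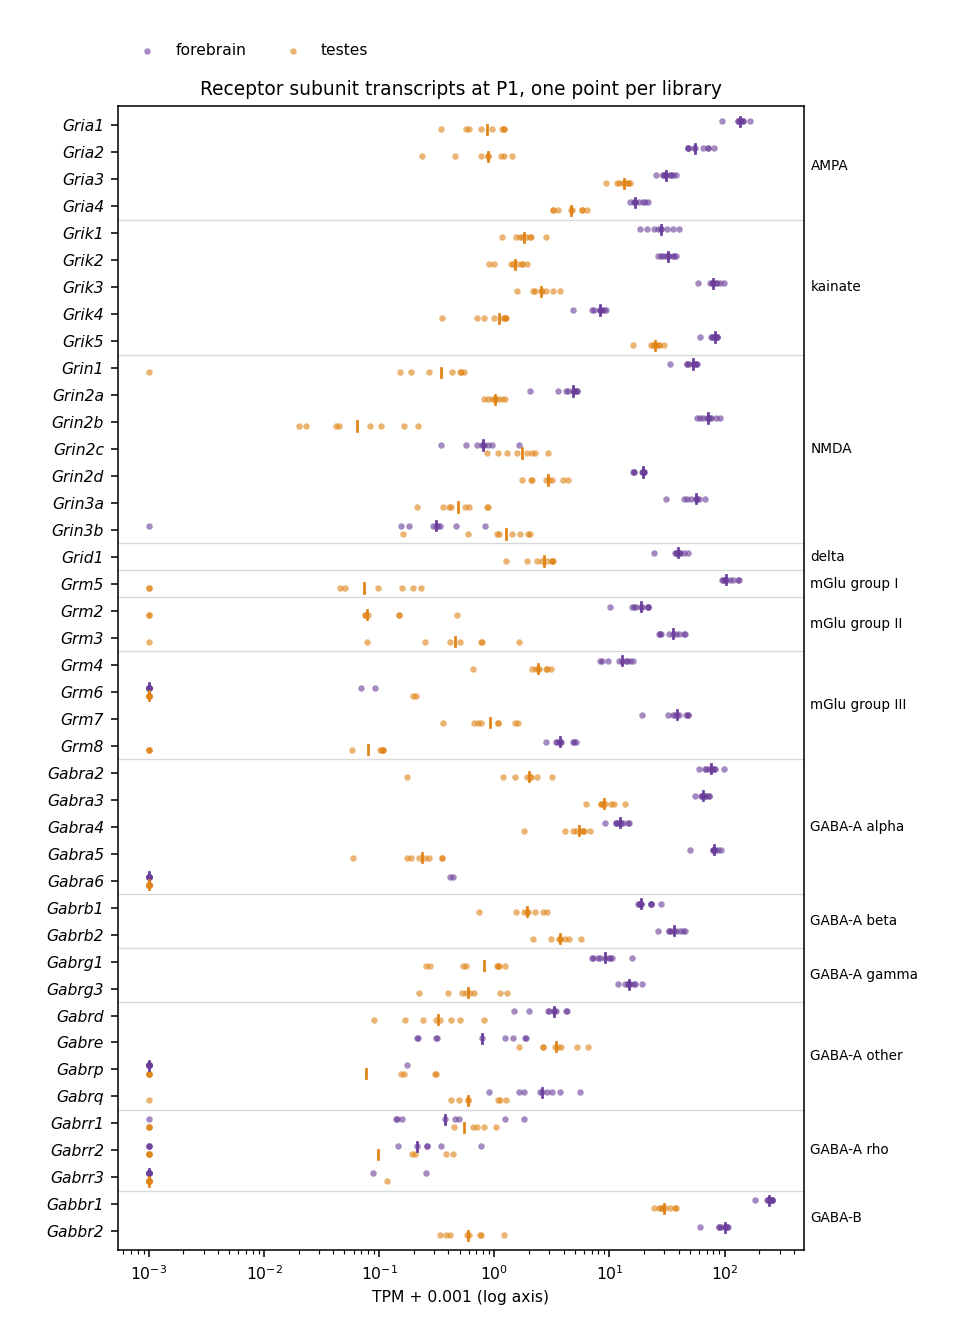
Levels of receptor subunits in forebrain and testes in TPM on a log scale, with 0.001 added, 1 point per library and a tick at the median, grouped by receptor class. *Gabbr1* leads in forebrain with a mean of 242 TPM, and *Gabbr1*, *Grik5* and *Gria3* lead in testes with 30.8, 24.4 and 13.0 TPM.

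Within receptor classes the newborn mixture could be read as shares of TPM. *Grin2b* made up 70.7% to 79.4% of the *Grin2* transcripts of a forebrain, and *Grin2a* 2.66% to 5.78%. *Gabra5*, *Gabra2* and *Gabra3* made up 26.9% to 34.3%, 27.8% to 32.4% and 24.0% to 30.03% of the alpha transcripts of GABA-A receptors. *Gria1* held 49.2% to 60.3% of the AMPA transcripts, *Gria2* 19.97% to 29.1%, *Gria3* 12.2% to 13.7% and *Gria4* 6.39% to 8.51%. These shares depend on the length used. The mean TPM of *Gria1* to *Gria4* was 136, 60.5, 31.8 and 17.9 with merged exons. It was 132, 112, 49.6 and 36.0 with the longest coding transcript. Most of the alpha transcripts were thus divided among *Gabra5*, *Gabra2* and *Gabra3*, whereas *Grin2b* held most of the *Grin2* transcripts.

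The genotypes differed in some of these shares. The *Gria2* share of AMPA transcripts was 29.0%, 27.3% and 29.1% in the WT forebrains, 23.5%, 19.97% and 20.6% in *Ocn*+/-, and 27.6%, 22.2% and 21.7% in *Ocn*-/-. It was lower in all 3 *Ocn*+/- forebrains than in any WT forebrain, while 1 *Ocn*-/- forebrain lay within the WT range. The *Gabra3* share of alpha transcripts was 28.2% to 30.03% in WT and 24.0% to 25.8% in the 6 mutant forebrains, with no overlap. These shares follow from the gene levels described next and were not tested on their own.

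**Figure D2:**
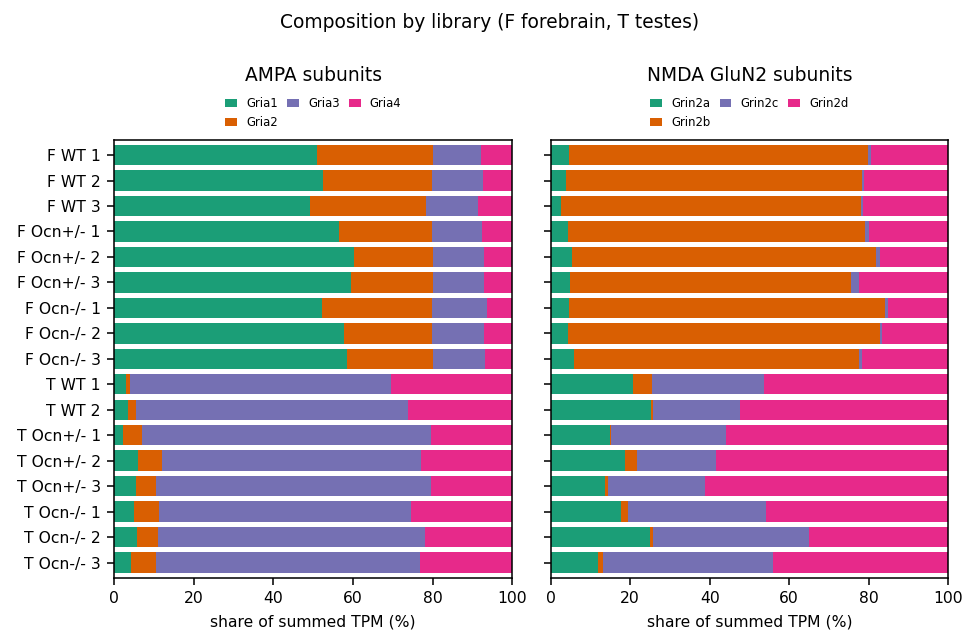
Composition of AMPA and *Grin2* transcripts as a percentage of the class's summed TPM, 1 bar per library, forebrains above testes. In forebrain *Gria1* and *Grin2b* take the largest parts of their classes, and in testes *Gria3* takes 63.3% to 72.9% of the AMPA transcripts.

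Receptor subunits were mostly brain genes. In a fit of all 17 libraries, edgeR's quasi-likelihood test with Benjamini-Hochberg adjustment over 17800 genes called all 41 subunits tested between forebrain and testes, where 84.4% of all genes were called. Of the 41, 38 were higher in forebrain and 3 lower, where 39.9% and 44.5% of all genes were. For 37 of them every forebrain lay above every testis, as for 21.9% of all genes. Their median log2 difference, forebrain minus testes, was 4.15, against -0.09 over all genes. Differences ran up to 9.90 ± 0.20 (SE) for *Grin2b* and 10.37 ± 0.17 for *Grm5*, each with at most 11 counts in a testis. *Grm8*, a group III mGlu receptor with at most 2 counts in a testis, stays above the median when set against 3 counts (log2 difference of 4.59).

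A few subunits were detected well in the newborn testis. *Gabbr1* had 55.4 to 90.6 CPM there (30.8 ± 4.86 TPM, n = 8), *Grik5*, a kainate subunit that works only together with others, 35.8 to 65.996 CPM (24.4 ± 3.999 TPM), and *Gria3* 28.6 to 50.3 CPM (13.0 ± 1.95 TPM). CPM are counts scaled to a common library size after TMM normalization, used for all comparisons of 1 gene between libraries. These 3 were still lower than in forebrain, by log2 differences of 3.22 ± 0.07, 1.97 ± 0.08 and 1.53 ± 0.08. Only *Gabre* (log2 difference, forebrain minus testes, -1.85 ± 0.37, adjusted p = 0.000117), *Grin3b* (-1.68 ± 0.48, adjusted p = 0.00245) and *Grin2c* (-0.73 ± 0.21, adjusted p = 0.00286) were higher in testes. *Gabre* encodes the epsilon subunit of GABA-A receptors, and all 3 had overlapping libraries and low counts. Of the exon bases of *Grin3b*, 32.4% overlap other genes, mostly *Tmem259*, so its counts are uncertain.

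Among the genotypes, forebrains of both mutants had less *Gria2*, *Gria4*, *Grik1* and *Grm5* and more *Grm4* than WT forebrains. This is the comparison of the mean of *Ocn*+/- and *Ocn*-/- with WT, in which 6 of the 40 subunits were called by edgeR's quasi-likelihood test at an adjusted p under 0.05, 2 higher and 4 lower. Of all 16076 genes tested, 8.68% were called, 3.29% higher and 5.39% lower. The median log2 fold change of the subunits was -0.03, against 0.01 over all genes (0.03 without WT 3, and 0.06 against 0.10 over all genes when scaled by library size alone), and 2 subunits lay above and 4 below WT in every mutant library, as 6.85% and 8.57% of all genes did. No test here sets the subunits apart from all genes.

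The mutants called singly gave shorter lists. In *Ocn*+/- against WT 4 of 40 subunits were called, all lower (*Gria2*, *Grik1*, *Grm3* and *Grm5*), where 3.89% of all genes were called and 2.68% called lower. In *Ocn*-/- against WT 4 were called (*Gria2*, *Gria4* and *Grik1* among 3 lower ones, and 1 higher), where 4.85% of all genes were called, 1.80% higher and 3.05% lower. The comparisons share the WT libraries and are not independent of each other. Without WT 3, 2 subunits (*Gria2* and *Grm4*) were called for both mutants together, 2 (*Gria2* and *Grm3*) in *Ocn*+/- and 0 in *Ocn*-/-. The shares of all genes called fell as well, to 1.95%, 1.11% and 1.15%. In *Ocn*+/- *Gria2* was the 1 call left without WT 1, *Ocn*+/- 2 or *Ocn*+/- 3, and it was left with *Grm3* without *Ocn*+/- 1. Of all genes 3.09%, 1.90% and 1.82% were called in *Ocn*+/- without WT 1, *Ocn*+/- 2 and *Ocn*+/- 1. In *Ocn*-/- 0 calls were left without WT 2, 1 without WT 1 or *Ocn*-/- 3, and 2 (*Gria2* and *Grik1*) without *Ocn*-/- 1. Of all genes 2.22%, 4.23%, 5.41% and 2.91% were called in these fits, in the order named. Both mutants together kept 4 calls without WT 1 or WT 2, *Gria2*, *Grik1* and *Grm5* among them. There 6.23% and 4.75% of all genes were called.

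**Figure D3:**
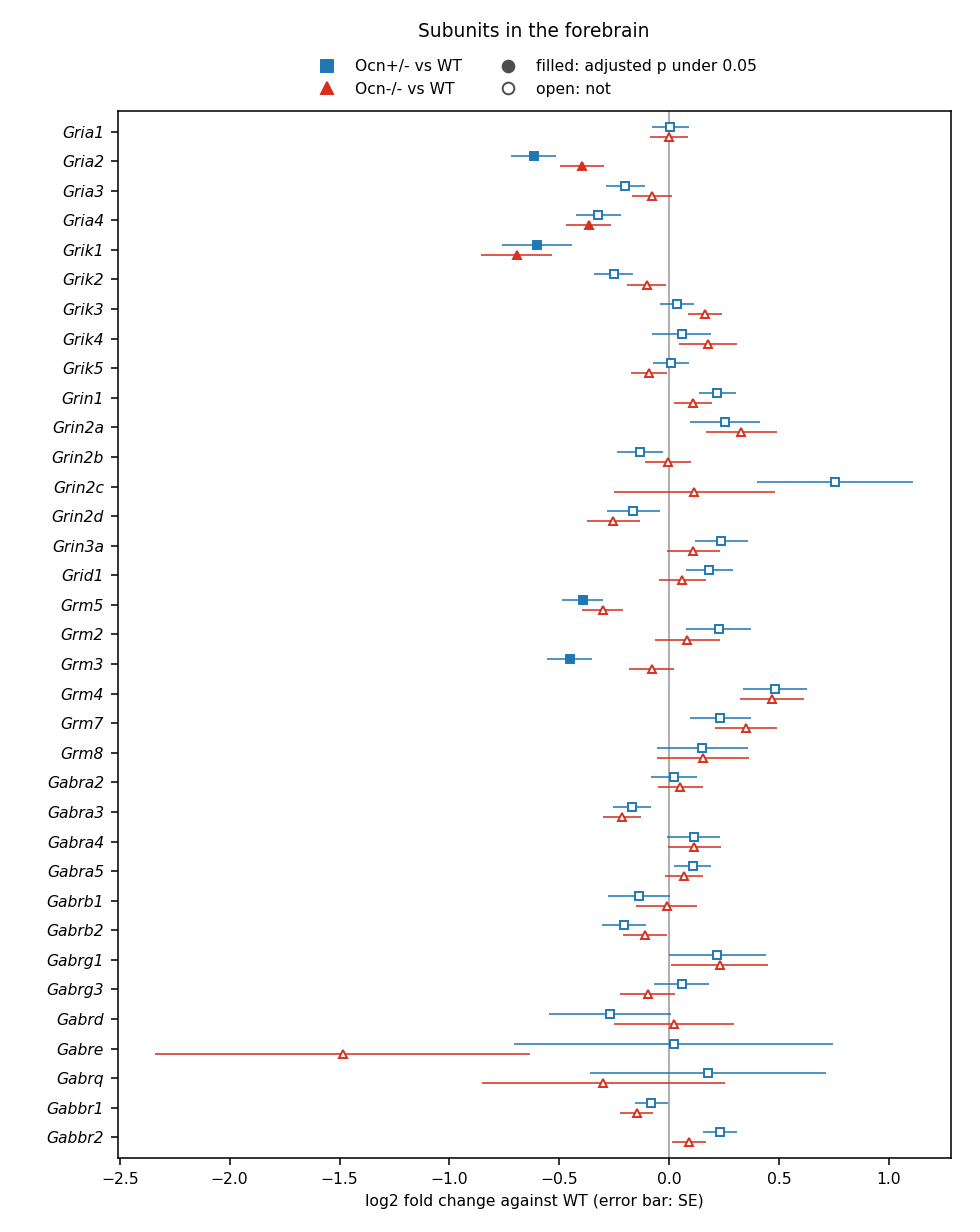
Log2 fold change of subunits in *Ocn*+/- and *Ocn*-/- forebrain against WT, with standard errors as bars, ordered by receptor class, filled where the adjusted p is under 0.05. The subunits scatter around 0 apart from a few, with *Gria2* at -0.62 and -0.40 and *Grik1* at -0.60 and -0.69 in the order of the genotypes named.

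Some markers of cell types differed between the genotypes in the same forebrains. Of all genes 8.68% were called for both mutants, 1.95% without WT 3 and 8.02% without *Ocn*-/- 1. A list with 0 or 1 call is not set apart from all genes by these shares. The share of all genes at an unadjusted p under 0.05 is not given for this comparison. In bulk tissue fewer cells of a type and less RNA per cell cannot be told apart. The summed CPM of 8 general neuronal markers was 8460 to 8917 in WT and 7707 to 8275 in the mutants, with 2 of the 8 called (*Dcx*, of young neurons, lower, and *Syt1* higher, the latter not without WT 3). Markers of striatum summed to 174 to 208 CPM in WT, 262 to 295 in *Ocn*-/- and 195 to 268 in *Ocn*+/-, with 2 of 7 called, both higher (1 without WT 3). Olfactory bulb markers summed to 31.3 to 36.1 CPM in WT, 30.6, 83.7 and 86.1 in *Ocn*-/- and 99.5 to 127 in *Ocn*+/-, with 0 of 5 called by edgeR (4 at an unadjusted p under 0.05, 1 called without WT 3 and 3 without *Ocn*-/- 1, the library at 30.6 CPM). Astroglial markers summed to 775 to 890 CPM in WT and 851 to 1115 in the mutants, with 2 of 7 called, both higher (1 without WT 3). Endothelial markers summed to 212 to 258 CPM in WT and 169 to 222 in the mutants, with 3 of 7 called, all lower (1 without WT 3). Erythroid genes summed to 522 to 719 CPM in WT, 486 to 599 in *Ocn*-/- and 356 to 407 in *Ocn*+/-, with 2 of 5 called, both lower (1 without WT 3). Markers of smooth and peritubular muscle summed to 12.2 to 13.3 CPM in WT and 7.98 to 11.7 in the mutants, with 1 of 3 tested called, *Acta2*, lower (0 without WT 3). Oligodendrocyte lineage markers summed to 242 to 269 CPM in WT, 251 to 297 in *Ocn*-/- and 292 to 310 in *Ocn*+/-, with 1 of 7 called, *Olig1*, higher (0 without WT 3). Choroid plexus markers summed to 587 to 752 CPM in WT, 328 to 540 in *Ocn*-/- and 584 to 875 in *Ocn*+/-, with 0 of 6 called by edgeR and 1 at an unadjusted p under 0.05. Sums for dividing progenitors, microglia, diencephalon and hippocampus overlapped between WT and each mutant, with 1, 1, 0 and 0 genes called. Genes induced by neuronal activity summed to 80.6 to 91.7 CPM in WT, 38.4 to 52.1 in *Ocn*-/- and 44.4, 49.8 and 130 in *Ocn*+/-, with 0 of 7 called by edgeR and 0 at an unadjusted p under 0.05. Excitatory markers (1322 to 1489 CPM in WT, 1110 to 1500 in the mutants) and inhibitory markers (771 to 867 and 702 to 884 CPM) overlapped between the genotypes, with 1 of 7 (*Slc17a7*) and 1 of 10 (*Slc32a1*) called, both higher and neither without WT 3. The part of these markers in the subunit results was not tested.

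*Gria2*, with the smallest p of the subunits in this comparison, was lower in both mutants. It lies on chromosome 3 (GRCm39, 80588757 to 80710538, minus strand) and 2.72% of its exon bases overlap another gene. Its level was 501, 462 and 497 CPM in the WT forebrains, 425, 383 and 300 CPM in *Ocn*-/- and 340, 310 and 302 CPM in *Ocn*+/-. All 6 mutant forebrains lay below all WT forebrains, and the *Ocn*+/- forebrains were the lowest as a group. In log2 fold change this was -0.62 ± 0.10 (SE, adjusted p = 0.00278, edgeR) in *Ocn*+/-, -0.40 ± 0.10 (adjusted p = 0.0309) in *Ocn*-/- and -0.51 ± 0.09 (adjusted p = 0.00185) for both. For both mutants together it was called in all 17 alternatives tried, from -0.56 to -0.32, with -0.49 and an adjusted p of 0.0323 without WT 3. In *Ocn*-/- alone it was no longer called without WT 1, WT 2, WT 3, *Ocn*-/- 2 or *Ocn*-/- 3 (adjusted p = 0.0775, 0.0574, 0.148, 0.0757 and 0.0686), nor with offsets for the GC content of genes (-0.24, adjusted p = 0.0803) or library size alone (-0.29, adjusted p = 0.125). In *Ocn*+/- it was called in all 18 alternatives, from -0.67 to -0.39.

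*Gria4*, which encodes the AMPA subunit GluA4 and lies on chromosome 9 (4417604 to 4796326, minus strand), was lower as well. It had 87.8, 82.5 and 95.5 CPM in WT, 64.5, 80.2 and 60.97 CPM in *Ocn*-/- and 73.2, 70.8 and 68.0 CPM in *Ocn*+/-, with all mutant forebrains below all WT forebrains. The log2 fold change was -0.37 ± 0.10 (adjusted p = 0.0445) in *Ocn*-/-, -0.32 ± 0.10 (adjusted p = 0.0791) in *Ocn*+/- and -0.34 ± 0.09 (adjusted p = 0.0199) for both, and the last was not called without WT 1 (adjusted p = 0.0586) or without WT 3 (-0.29, adjusted p = 0.133), with library size alone (-0.25, adjusted p = 0.113) or with GC offsets, which brought it to -0.17 (adjusted p = 0.157). In *Ocn*-/- *Gria4* was called in 8 of 18 alternatives.

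The other AMPA subunits did not pass the test. *Gria1* had 252 to 265 CPM in WT and 240 to 298 CPM in the mutants, with a log2 fold change of 0.00 for both mutants (95% interval -0.14 to 0.15). *Gria3* had a log2 fold change of -0.14 (95% interval -0.29 to 0.01, adjusted p = 0.27). Of the 4 AMPA subunits, 2 were called lower and 0 higher by edgeR, where 5.39% and 3.29% of all genes were.

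The promoter windows of *Gria2* and *Gria4*, the AMPA subunits with calls in both tissues, are shown to set them beside the other subunits. They were taken from RefSeq windows of 300 bases (250 before and 50 after a start), build GRCm38.p6, which were found for 32 of the 47 subunits in 39 windows. *Gria2* lies at chr3:80802786-80803085 and *Gria4* at chr9:4796185-4796484, both on the minus strand and printed 5′ to 3′ along the gene, and capitals mark a match, sought on both strands, to a form of RE1, the element bound by the repressor REST, with a few of its bases left free.
Gria2: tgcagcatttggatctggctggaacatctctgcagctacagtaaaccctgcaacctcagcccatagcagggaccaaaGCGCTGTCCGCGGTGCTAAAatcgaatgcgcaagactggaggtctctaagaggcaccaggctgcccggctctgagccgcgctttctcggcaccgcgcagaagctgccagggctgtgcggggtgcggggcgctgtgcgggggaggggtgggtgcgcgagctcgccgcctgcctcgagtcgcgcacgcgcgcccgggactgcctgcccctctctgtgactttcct
Gria4: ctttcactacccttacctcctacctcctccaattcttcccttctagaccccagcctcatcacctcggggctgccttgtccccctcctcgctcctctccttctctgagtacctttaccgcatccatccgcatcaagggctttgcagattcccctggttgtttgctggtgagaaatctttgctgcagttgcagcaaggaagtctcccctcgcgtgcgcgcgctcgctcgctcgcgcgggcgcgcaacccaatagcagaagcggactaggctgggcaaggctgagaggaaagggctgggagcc
In the *Gria2* window the match stands on the strand opposite to the gene. The free bases were set after that window had been read. RE1 in this form occurred in 2 of 32851 windows (0.00609%) and in 1 of the 39 windows of subunits, that of *Gria2*. GGGCGG, the GC box, occurred in 19 of the 39 (48.7%) and in 35.7% of all windows. The *Gria2* window had 65.7% GC and 26 CpG and the *Gria4* window 59.7% GC and 17 CpG. A match in letters is a description, not a site in use, and the windows of *Gabrd*, *Gria1*, *Gria3*, *Grid1*, *Grik1*, *Grin2a*, *Grin2b*, *Grin3a*, *Grm4* and *Grm5*, among others, were not analysed here.

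Of the kainate subunits, *Grik1* was lower in the mutants. *Grik1* encodes GluK1 and lies on chromosome 16 (87692788 to 88087153, minus strand). It had 60.5, 56.2 and 61.02 CPM in WT, 26.8, 45.9 and 36.8 CPM in *Ocn*-/- and 32.5, 41.9 and 42.9 CPM in *Ocn*+/-. No mutant forebrain reached the lowest WT forebrain, and the spread was widest in *Ocn*-/-. Fold changes on the log2 scale were -0.69 ± 0.16 (adjusted p = 0.0236) in *Ocn*-/-, -0.60 ± 0.16 (adjusted p = 0.0498) in *Ocn*+/- and -0.65 ± 0.14 (adjusted p = 0.0107) for both. The last was called in 16 of 17 alternatives, the exception being without WT 3 (-0.62, adjusted p = 0.0825), whereas in *Ocn*+/- it was called in 8 of 18.

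The other 4 kainate subunits were not called. *Grik3*, the most abundant of the class in TPM, had 169, 184 and 194 CPM in WT and 181 to 214 CPM in the mutants, and *Grik5* had 171, 172 and 185 CPM in WT and 153 to 188 CPM in the mutants. Their log2 fold changes for both mutants were 0.10 (95% interval -0.03 to 0.23) and -0.04 (-0.18 to 0.10). *Grik2* had -0.25 ± 0.09 in *Ocn*+/- (adjusted p = 0.111) with all 3 libraries below WT.

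No NMDA or delta subunit was called in forebrain. *Grin2b* had 437, 420 and 480 CPM in WT and 354 to 500 CPM in the mutants, with a log2 fold change of -0.07 for both (95% interval -0.25 to 0.11). *Grin1*, which every NMDA receptor contains, had 118, 124 and 122 CPM in WT and 116 to 145 CPM in the mutants, with a log2 fold change of 0.16 (adjusted p = 0.174). All 3 *Ocn*+/- forebrains lay above WT for *Grin1*, and *Ocn*-/- overlapped. *Grid1*, of the delta receptors, which act at synapses as adhesion proteins, had 0.12 (95% interval -0.06 to 0.30).

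The mGlu receptors passing the test in at least 1 comparison were *Grm5*, *Grm3* and *Grm4*, each from a different group. *Grm5*, a group I receptor that activates phospholipase C, lies on chromosome 7 (87233376 to 87784594, plus strand). It had 321, 300 and 349 CPM in WT, 254, 304 and 227 CPM in *Ocn*-/- and 234, 254 and 249 CPM in *Ocn*+/-. All *Ocn*+/- forebrains lay below WT, while *Ocn*-/- 2 lay within the WT range. On the log2 scale the fold change was -0.39 ± 0.09 (adjusted p = 0.0233) in *Ocn*+/-, -0.30 ± 0.09 (adjusted p = 0.0644) in *Ocn*-/- and -0.35 ± 0.08 (adjusted p = 0.012) for both, and the last was not called without WT 3 (-0.29, adjusted p = 0.104) or with library size alone (-0.25, adjusted p = 0.0721).

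*Grm3*, a group II receptor of astroglia and neurons on chromosome 5 (9534069 to 9776088, minus strand), was lower in *Ocn*+/-. It had 68.1, 59.9 and 59.6 CPM in WT, 64.6, 59.3 and 54.3 CPM in *Ocn*-/- and 50.5, 44.8 and 42.2 CPM in *Ocn*+/-. The *Ocn*+/- forebrains lay below all others, and *Ocn*-/- overlapped WT. The log2 fold change was -0.45 ± 0.10 (adjusted p = 0.0185) in *Ocn*+/- and -0.08 ± 0.10 (adjusted p = 0.7) in *Ocn*-/-, and the first was not called without WT 1 (adjusted p = 0.0848), *Ocn*+/- 2 (adjusted p = 0.0689) or *Ocn*+/- 3 (adjusted p = 0.0958), or with library size alone (adjusted p = 0.105).

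*Grm4*, a presynaptic group III receptor on chromosome 17 (27641361 to 27740377, minus strand), was higher. It had 15.02, 13.8 and 18.3 CPM in WT, 18.8, 24.0 and 21.6 CPM in *Ocn*-/- and 23.5, 19.3 and 22.2 CPM in *Ocn*+/-. The mutants lay above WT throughout, though *Ocn*-/- 1 by little. Singly neither mutant was called by edgeR, with log2 fold changes of 0.48 in *Ocn*+/- (adjusted p = 0.0668) and 0.47 in *Ocn*-/- (adjusted p = 0.0651). For both mutants the log2 fold change was 0.47 ± 0.13 (adjusted p = 0.0268), and it was not called without WT 1 (adjusted p = 0.099), WT 2 (adjusted p = 0.133) or *Ocn*-/- 2 (adjusted p = 0.0556), or with GC offsets (adjusted p = 0.052). *Grm7*, the most abundant group III receptor, had 0.29 (95% interval 0.05 to 0.53, adjusted p = 0.15).

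GABA-A genes stand in clusters along the genome. *Gabrb2*, a beta subunit of the cluster on chromosome 11, had 94.7 to 112 CPM in WT and 81.4 to 102 CPM in the mutants, with a log2 fold change for both of -0.16 ± 0.09 (adjusted p = 0.268). *Gabra3*, in a cluster on the X chromosome, had 114, 113 and 125 CPM in WT and 92.8 to 111 CPM in the mutants. All mutant forebrains lay below WT for *Gabra3*, yet its log2 fold change of -0.19 ± 0.07 did not pass the test (adjusted p = 0.109).

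*Gabra5*, an alpha subunit of the cluster on chromosome 7, had 146 to 167 CPM in WT and 152 to 184 CPM in the mutants, with a log2 fold change for both of 0.09 (95% interval -0.06 to 0.23). *Gabrd*, of receptors outside synapses, had 3.02 to 5.95 CPM in WT and 2.84 to 5.87 CPM in the mutants, and its interval for both (-0.59 to 0.35) was among the wider ones. The GABA-B subunits were not called. *Gabbr1* had 543, 574 and 560 CPM in WT and 475 to 569 CPM in the mutants, with -0.11 (95% interval -0.24 to 0.01), and *Gabbr2* had 167, 175 and 166 CPM in WT and 166 to 209 CPM in the mutants, with 0.16 (0.03 to 0.30, adjusted p = 0.143).

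**Figure D4:**
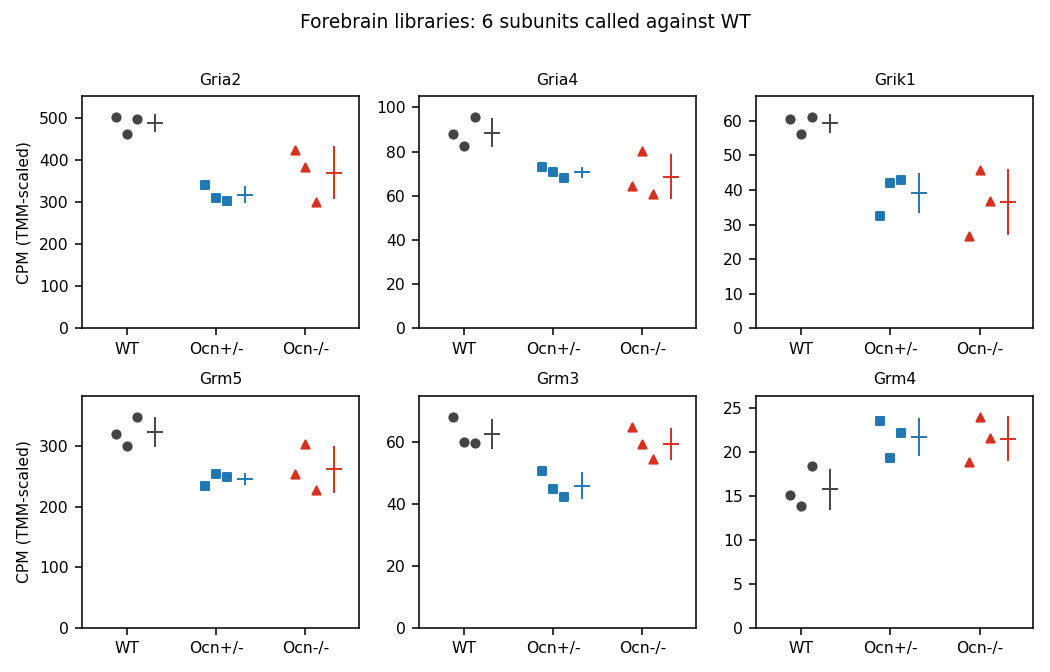
CPM of 6 subunits called in a forebrain comparison against WT, 1 point per library, with the mean and SD of each genotype beside the points. *Gria2* falls from 462 to 501 CPM in WT to 300 to 425 CPM in the mutants, and *Grm4* stands at 13.8 to 18.3 CPM in WT and 18.8 to 24.0 CPM in the mutants.

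*Ocn*-/- and *Ocn*+/- pups shared the mother's genotype, so this comparison differs in the pup's own alleles and not in the mother's. No source used here says that the 2 groups were littermates or had the same fathers. Litter and father thus cannot be told apart from the pup's alleles. edgeR called 0 of 40 subunits between them, where 0.00622% of all genes were called. DESeq2 called 0 as well. At an unadjusted p under 0.05 in edgeR there were 2 subunits, *Gria2* and *Grm3*, where 3.20% of all genes passed. *Grm3* was the one further apart, at a log2 difference of 0.37 ± 0.10, *Ocn*-/- minus *Ocn*+/-, with an adjusted p of 0.999 by edgeR. All 3 *Ocn*-/- forebrains lay above all 3 *Ocn*+/- forebrains for *Grm3*.

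In the testes of the mutants *Gria2* was higher. It had 1.68 and 3.28 CPM in the WT testes, 8.77, 7.52 and 5.81 CPM in *Ocn*-/- and 4.91, 7.95 and 5.91 CPM in *Ocn*+/-, from 13 to 74 counts. Every mutant testis lay above both WT testes. The log2 fold change was 1.33 ± 0.38 (adjusted p = 0.0409) in *Ocn*+/-, 1.56 ± 0.37 (adjusted p = 0.0239) in *Ocn*-/- and 1.44 ± 0.35 (adjusted p = 0.018) for both. Without WT 1 the last was 1.05 (adjusted p = 0.225) and without WT 2 it was 2.02 (adjusted p = 0.072), so its size rests on 2 WT libraries. *Gria2* remained a small part of AMPA transcripts there, at 1.12% and 2.06% in WT and 4.73% to 6.26% in the mutants.

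*Gria4* was lower in mutant testes as in mutant forebrains. It had 30.2 and 27.3 CPM in WT, 23.6, 20.5 and 14.2 CPM in *Ocn*-/- and 13.8, 20.2 and 15.7 CPM in *Ocn*+/-. No mutant testis reached the lower of the WT testes, and *Gria4* had a log2 fold change of -0.68 ± 0.19 for both mutants (adjusted p = 0.0369) and -0.79 ± 0.22 in *Ocn*+/- (adjusted p = 0.0393). *Gabrg3*, a gamma subunit on chromosome 7 (56366213 to 57036936, minus strand), had 3.50 and 4.04 CPM in WT and 0.637 to 1.78 CPM in the mutants, from 5 to 32 counts, with -1.43 ± 0.42 for both (adjusted p = 0.0401). Neither was called without WT 1 (adjusted p = 0.264 and 0.192) or without WT 2 (adjusted p = 0.247 and 0.356), with the replicate number as a block (adjusted p = 0.099 and 0.086) or with GC offsets (-0.43 and -1.26, adjusted p = 0.115 and 0.065). For both mutants *Gria4* was called in 9 of 16 alternatives and *Gabrg3* in 7 of 15, DESeq2 not among the latter (adjusted p = 0.0678).

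These were 3 of 32 subunits called for both mutants in testes, 1 higher and 2 lower, where 9.94% of all genes were called (4.51% higher and 5.43% lower), and the median log2 fold change of the subunits was -0.23, against 0.00 over all genes (-0.38 without WT 1 and -0.09 without WT 2). Without *Ocn*+/- 1 or *Ocn*+/- 3 *Gria2* was the 1 call left for both mutants, and without either WT testis 0 were left. In *Ocn*+/- 2 were called (*Gria2* and *Gria4*), where 8.25% of all genes were called, and in *Ocn*-/- 1 (*Gria2*), where 5.64% were. In *Ocn*+/- 0 were left without *Ocn*+/- 1 or *Ocn*+/- 3, where 2.16% and 2.82% of all genes were called. In *Ocn*-/- 0 were left without *Ocn*-/- 1, where 2.51% were. For both mutants 6.47% and 6.44% of all genes were called without *Ocn*+/- 1 and *Ocn*+/- 3. Of the 3 most abundant subunits in testes, *Gabbr1* had 70.5 and 90.6 CPM in WT and 55.4 to 85.4 CPM in the mutants, *Grik5* 55.3 and 60.9 and 35.8 to 65.996 CPM, and *Gria3* 45.6 and 50.3 and 28.6 to 44.7 CPM. *Gria3* lay below WT in all mutant testes without passing the test (-0.34 ± 0.15, adjusted p = 0.171).

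Some cell type markers also differed in the testes, where 9.94% of all genes were called for both mutants. The 6 Leydig cell markers summed to 1691 to 1772 CPM in WT and 714 to 1249 CPM in the mutants, with 1 called (*Lhcgr*, the receptor of luteinizing hormone, lower). The 7 endothelial markers summed to 605 to 610 CPM in WT and 354 to 431 CPM in the mutants, with 5 called, all lower. Erythroid genes summed to 2596 to 6860 CPM in WT, 1314 to 2514 in *Ocn*-/- and 864 to 3940 in *Ocn*+/-. In the same order, genes induced by activity summed to 391 to 426, 132 to 168 and 155 to 456 CPM. Markers of peritubular muscle summed to 871 to 1075, 644 to 840 and 740 to 931 CPM. Those of macrophages summed to 114 to 121, 77.5 to 124 and 131 to 155 CPM. Nerve and Schwann cell markers summed to 87.7 to 109, 118 to 135 and 101 to 112 CPM. Markers of neurons (151 to 168 CPM in WT and 140 to 186 in the mutants), Sertoli cells and germ cells overlapped. Their part in the subunit results was not tested.

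The difference between mutants and WT was itself compared between the tissues in a joint fit. It differed for 3 of 41 subunits, where 2.96% of all genes were called. For *Gria2* the log2 fold change in forebrain minus that in testes was -1.94 ± 0.29 (adjusted p = 0.000792), and it was called in all 25 alternatives, from -2.50 to -1.54. For *Gabrg3* it was 1.41 ± 0.30 (adjusted p = 0.0135), with 38.2 to 45.7 CPM in WT forebrains and 37.1 to 54.0 CPM in mutant forebrains. Without either WT testis *Gria2* was the 1 subunit called (*Gabrg3* had adjusted p = 0.0574 and 0.145). For *Gria4*, lower in both tissues, the difference between them was 0.34 ± 0.20 (adjusted p = 0.376).

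**Figure D5:**
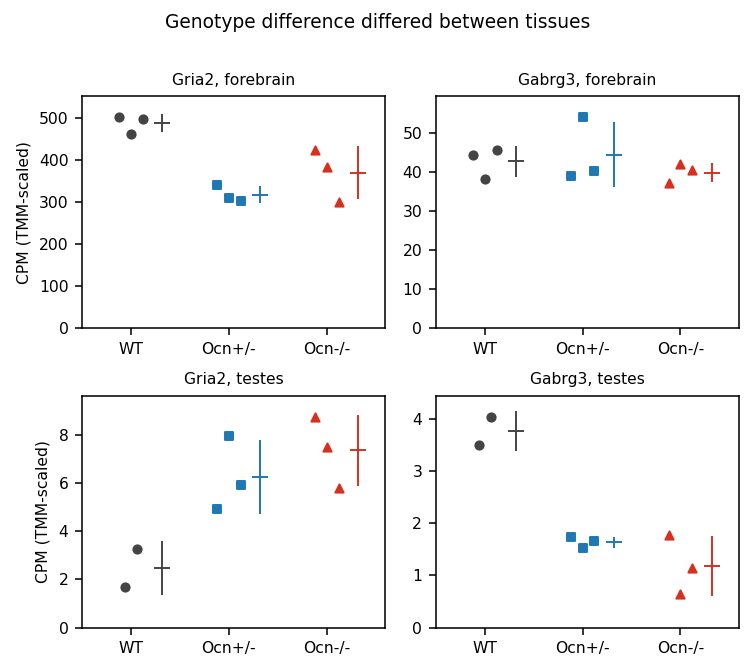
CPM of *Gria2* and *Gabrg3* by genotype in forebrain (upper row) and testes (lower row), 1 point per library, with the mean and SD of each genotype beside the points. *Gria2* is lower in the mutants in forebrain and higher in testes, where WT stands at 1.68 and 3.28 CPM, and *Gabrg3* is lower in mutant testes and overlaps between the genotypes in forebrain.

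The proteins that carry, anchor and feed these receptors were followed as 5 lists, in forebrain first. There 8.68% of all genes were called for both mutants, 1.95% without WT 3 and 8.02% without *Ocn*-/- 1. Of 13 auxiliary subunits of glutamate receptors 1 was called for both mutants, *Cacng7*, which modulates AMPA receptors. It had 150, 176 and 193 CPM in WT and 118 to 153 CPM in the mutants, with a log2 fold change of -0.39 ± 0.09 (adjusted p = 0.00997). Of 18 scaffold genes 1 was called, *Dlgap1*, a protein of the postsynaptic density, with 141 to 150 CPM in WT and 169 to 178 CPM in the mutants (0.26 ± 0.06, adjusted p = 0.0155). Without WT 3 neither list had a call, and their medians of 0.03 and 0.04 were near that of all genes (0.01).

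Of 12 auxiliary and scaffold genes of GABA receptors 1 was called, *Shisa7*, which regulates GABA-A receptors. It had 256, 278 and 318 CPM in WT and 163, 169 and 199 CPM in *Ocn*-/- and 175, 214 and 224 CPM in *Ocn*+/-. All mutants lay below WT, with a log2 fold change of -0.58 ± 0.09 (adjusted p = 0.00109), and the list still had 1 call without WT 3. The median of the list was -0.03.

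Of 16 genes for making, loading and clearing the transmitters 4 were called, 2 higher and 2 lower, where 3.29% and 5.39% of all genes were. *Slc17a7*, the vesicular glutamate transporter of cortical neurons, had 70.1 to 101 CPM in WT and 97.99 to 141 CPM in the mutants (0.52 ± 0.11, adjusted p = 0.0119), and *Slc32a1*, the vesicular GABA transporter, had 48.9 to 52.2 and 58.3 to 84.2 CPM (0.40 ± 0.10, adjusted p = 0.0193). *Glul*, glutamine synthetase, had 331 to 383 CPM in WT and 242 to 315 CPM in the mutants (-0.32 ± 0.07, adjusted p = 0.0109). The vesicular glutamate transporters *Slc17a6* (52.0 to 60.4 CPM in WT and 40.8 to 77.98 in the mutants) and *Slc17a8* (2.36 to 3.56 and 2.95 to 4.69 CPM) overlapped between the genotypes and were not called. The median of the list was 0.03. *Glul* alone was called without WT 3, and 5 genes were called without *Ocn*-/- 1.

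Of 5 genes of chloride transport 2 were called, both lower, where 5.39% of all genes were. *Slc12a2* had 77.3, 72.5 and 93.0 CPM in WT and 59.2 to 65.9 CPM in the mutants (-0.38 ± 0.08, adjusted p = 0.00983), and *Clcn2*, a chloride channel, had 25.3 to 30.2 and 19.7 to 25.3 CPM (-0.38 ± 0.11, adjusted p = 0.0325). *Slc12a5* had 105 to 122 CPM in WT and 112 to 151 CPM in the mutants and did not pass the test (0.18 ± 0.09, adjusted p = 0.23). Neither call was left without WT 3. The ratio of *Slc12a5* to *Slc12a2* in TPM was 2.42, 2.46 and 1.72 in WT and 2.90 to 3.77 in the mutants, without overlap.

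In testes the same lists held 0 of 9 (auxiliary), 3 of 17 (scaffold), 2 of 11 (GABA auxiliary and scaffold), 1 of 10 (transmitter supply) and 0 of 5 (chloride transport) calls for both mutants, where 9.94% of all genes were called. The scaffold genes *Shank2* (0.59 ± 0.14, adjusted p = 0.0181) and *Homer3* (0.59 ± 0.18, adjusted p = 0.0478) were higher and *Homer1* (-0.48 ± 0.13, adjusted p = 0.0339) was lower. *Kctd12*, an auxiliary subunit of GABA-B receptors, was lower (-0.53 ± 0.13, adjusted p = 0.017), and the glutamate transporter *Slc1a6* was higher (0.68 ± 0.19, adjusted p = 0.0383). None of these named genes was called for both mutants in forebrain.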

How the data were processed

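RNA of 9 forebrains and 8 testes was measured. Per the submitters' processing notes, reads were trimmed with Trim Galore 0.6.6, aligned to GRCm39 with STAR 2.7.8a and counted with RSEM 1.3.3. The authors deposited 1 table of expected counts for 55359 genes without normalization, with values other than whole numbers in 9625 genes, and columns of other series numbered 0. The annotation release and strandedness are not given in the sources used here, so reads of overlapping or antisense genes cannot be told apart. RSEM divides reads shared by similar genes.

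Deposited expected counts were rounded and analysed in R 4.3.3 with edgeR 4.0.16 and limma 3.58.1 (TMM, filterByExpr by genotype, robust quasi-likelihood tests, two-sided, no covariates). Each tissue was fitted alone with all 3 genotypes (16076 genes in forebrain, 16361 in testes), and both tissues together (17800 genes). Genes were called where p, adjusted over all genes tested by the Benjamini-Hochberg method, was under 0.05. SE is the log2 fold change divided by the square root of F. TPM used merged exon lengths of GENCODE M39. Alternatives used DESeq2 1.42.0, other normalizations and filters, offsets for GC content, a replicate block and each library left out. Gene lists without WT 3 or without *Ocn*-/- 1 were added after seeing the data. The fits were tested on simulated data. Where the replicate number is shared between genotypes, no source says that it marks a litter or day.

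Members, lists and tests were chosen with earlier results of these data known. Given in full were subunits called in forebrain against WT, others up to 10 by p, the most abundant of each class and the 3 most abundant in testes. Some genes are counted but not reported here by name. Those called in testes or between the tissues were added after their values were seen. Floors of 3 counts cover counting error only, while the 95% intervals come from the fits and include the spread between libraries.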

Additional observations from a re-analysis of the deposited data

Results flagged for a closer look

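For *Gria2* and *Gabrg3* a test of the difference itself found that mutants and WT differed otherwise in forebrain than in testes. The log2 fold change in forebrain minus that in testes was -1.94 for *Gria2* and 1.41 for *Gabrg3*. In the joint fit both passed at an adjusted p under 0.05 by edgeR, and without either WT testis *Gria2* passed and *Gabrg3* did not. The groups of 2 and 3 libraries are too small to test for an outlying library within a group, so libraries were left out 1 at a time instead.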

How the results depend on the processing

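No called difference of a named subunit changed its direction under the alternatives. *Grm3* in *Ocn*-/- forebrain, which was not called, went from -0.08 to 0.02 with library size alone, and the median of the subunits for both mutants in forebrain from -0.03 to 0.06 with library size alone, 0.02 with GC offsets, 0.01 without WT 1 and 0.03 without WT 3. Of the 4, 4 and 6 subunits called in *Ocn*+/-, *Ocn*-/- and both mutants against WT in forebrain, library size alone left 1 in *Ocn*+/-, no filter on low counts gave 7 in *Ocn*+/- and 7 in *Ocn*-/-, and GC offsets left 2 in *Ocn*-/-. Requiring at least 10 counts in every library left 17 subunits for forebrain against testes, since only 17 could then be tested. In testes *Ocn*+/- had 1 call with library size alone, with the replicate block and with GC offsets, *Ocn*-/- had 3 without a filter, 2 with at least 10 counts and 3 with the likelihood ratio test, and both mutants had 1 with the replicate block and 1 with GC offsets. The cause was not tested. Leaving out 1 library gave 1 to 5 calls in *Ocn*+/-, 0 to 4 in *Ocn*-/-, 2 to 7 for both and 0 to 0 between the mutants in forebrain, 41 to 41 between the tissues, 0 to 2, 0 to 2 and 0 to 4 in testes (*Ocn*+/-, *Ocn*-/- and both; 0 in all 3 without either WT testis, where the lone WT is assumed to vary like the other groups), and 1 to 3 in the test between tissues. Over all genes, the forebrain calls went from 1395 to 320 (both mutants), 625 to 183 (*Ocn*+/-) and 780 to 189 (*Ocn*-/-) without WT 3 and to 779, 373 and 363 without WT 2, in *Ocn*+/- also to 298, 312 and 273 without *Ocn*+/- 1, 2 and 3 and in *Ocn*-/- to 478 and 278 without *Ocn*-/- 1 and 2, and the testis calls from 1626, 1350 and 922 to 286, 131 and 231 without WT 1 and to 125, 118 and 85 without WT 2, for both mutants also to 1046, 2497, 1054 and 1049 without *Ocn*-/- 1, *Ocn*-/- 2, *Ocn*+/- 1 and *Ocn*+/- 3, in *Ocn*+/- to 352 and 459 without *Ocn*+/- 1 and 3, and in *Ocn*-/- to 409, 1559 and 589 without *Ocn*-/- 1, 2 and 3. With no filter they were 1265 and 1502 in *Ocn*+/- and *Ocn*-/- forebrain and 2149 and 1763 in testes, with the likelihood ratio test 944 in *Ocn*+/- forebrain and 1389 in *Ocn*-/- testes, with library size alone 369 in *Ocn*+/- forebrain, and in *Ocn*+/- testes 869 with GC offsets and 2084 with only the 2 genotypes. Between the mutants 1 call became 0 to 34, and between tissues 526 became 947 with DESeq2, 948 with the likelihood ratio test, 1023 with no filter, 129 and 93 without WT testis 1 and 2, 276, 283 and 274 without WT forebrain 1, 2 and 3, 1070 without *Ocn*-/- testis 2 and 347 without *Ocn*-/- forebrain 2. Library size alone moved the higher share of all called genes for both mutants from 37.9% to 64.6% in forebrain and from 45.4% to 65.5% in testes.

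With the replicate number as a block the forebrain counts were 4, 4 and 7, those in testes 1, 1 and 1, between the mutants 0, and between tissues 3. The numbers are not shown to pair the samples: deviations of forebrains of the same number correlated at 0.04, -0.07 and -0.06 (WT and *Ocn*-/-), 0.09, 0.02 and -0.06 (WT and *Ocn*+/-) and 0.16, -0.00361 and 0.22 (*Ocn*-/- and *Ocn*+/-), and not every library correlated best with its own number. The depth of the testes (5 to 74 counts for *Gria2* and *Gabrg3*) limits what they can show.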
